A study of Mus musculus with 4 samples.

Results

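The genes described here encode the actin core and the tip adhesions of the epithelial microvillus, in cultures of mouse colonic organoids that were left untreated or given sodium butyrate. The 10 members are *Vil1*, *Pls1*, *Eps8*, *Ezr*, *Myo1a*, *Cdhr2*, *Cdhr5*, *Ush1c*, *Anks4b* and *Myo7b*, chosen by symbol, and all 10 were found among the 36144 gene names of the count table. The organoids were grown from the colon of a mouse and sequenced at passage 3, with 1 library for each of 4 conditions. These were untreated at 48 h, 2 mM butyrate at 48 h, untreated at 72 h and 2 mM butyrate at 72 h, with day 2 and day 3 in the labels standing for 48 h and 72 h. The labels describe a wild-type male of 24 weeks, whereas the study's methods and figure legend name Hes1-GFP reporter mice and a single animal as the source. All cultures shared a medium with EGF, Noggin, R-spondin, the Wnt activator CHIR99021 and Y-27632, the untreated cultures included. With 1 library for each condition there is no replicate error, no test across genes was run, and every interval below is a 95% interval for counting error only.

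Absorptive cells of the intestine carry a brush border, a dense array of microvilli on the surface that faces the lumen. Each microvillus is a membrane protrusion around a bundle of actin filaments, which villin (*Vil1*), plastin-1 (*Pls1*) and EPS8 (*Eps8*) bundle or cap, and which ezrin (*Ezr*) and the motor myosin-1a (*Myo1a*) tie to the membrane. The protocadherins CDHR2 and CDHR5 reach from the tip of each microvillus to its neighbours and bind each other. Inside the tip they are anchored by the scaffolds harmonin (*Ush1c*) and ANKS4B and by the motor myosin-7b (*Myo7b*), an assembly that resembles the tip links of inner ear hair cells.

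The libraries held between 20790225 and 24207840 counts, of which mitochondrial genes took 14.1% to 18.4%. The members together took 0.257% to 0.297% of the counts. Counts were divided by DESeq2 size factors, and these normalised counts are used below unless a raw count is named. The epithelial label was borne out by *Epcam*, *Cdh1*, *Krt8*, *Krt18* and *Krt19*, with at least 9480 counts each in every library. No library held more than 16 counts of any of the 5 immune markers, and the summed level of the 7 stromal and endothelial markers was 38.9 to 63.2 normalised counts. Of 4 markers of small intestinal enterocytes, *Lct*, *Apoa4* and *Fabp6* had at most 11 counts, whereas *Sis* had 422 counts untreated against 847 with butyrate after 48 h, and 2357 against 543 after 72 h.

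All 10 members were well expressed, the lowest count being 1326 for *Anks4b* in the butyrate library at 72 h. Levels were compared between genes after division by the length of the exons of each gene in kb. *Ezr* stood first, with 3577 to 4620 normalised counts per kb over the 4 libraries, above the range of every other member. *Cdhr5* had 2282 to 3353 and *Vil1* 2462 to 3115, ranges that overlap, so their order was not separated. *Cdhr2* followed with 1383 to 1873 and *Myo1a* with 932 to 1774, which overlap, and the range of *Myo1a* also spanned that of *Pls1*, at 1228 to 1350. *Myo7b* had 831 to 1038 and *Ush1c* 599 to 952, which overlap each other and the range of *Myo1a*. *Anks4b*, at 367 to 514, and *Eps8*, at 262 to 310, stood below the other members and apart from each other. The annotated exons of *Eps8* cover 12355 bases and its longest transcript 4567. With the longest transcript as length, *Eps8* passed *Anks4b*, *Vil1* passed *Cdhr5* and *Ush1c* passed *Myo7b*, and the other 4 members kept their places.

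In the GRCm38 build and the GENCODE annotation, *Vil1* lies on chromosome 1 from 74409376 to 74435559, *Pls1* on chromosome 9 from 95752642 to 95845311 and *Eps8* on chromosome 6 from 137477245 to 137654876. *Ezr* is on chromosome 17 from 6738041 to 6782784 and *Myo1a* on chromosome 10 from 127705170 to 127720940. *Cdhr2* is on chromosome 13 from 54701461 to 54736662 and *Myo7b* on chromosome 18 from 31959234 to 32036961. Chromosome 7 carries *Ush1c* from 46195350 to 46238503, *Anks4b* from 120173858 to 120185586 and *Cdhr5* from 141269083 to 141276786. Exons of *Ush1c* share 120 bases (3.12% of its exon length) with *Gm9860* on the opposite strand, those of *Vil1* share 49 bases (1.38%) with *Usp37* and those of *Ezr* share 4 bases with *Sytl3*. Reads from these bases could not be told apart by gene where the counting ignored strand.

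The first comparison asked how butyrate-treated organoids differed from untreated ones at 48 h. The members did not move together. *Myo1a*, *Cdhr2*, *Ezr* and *Cdhr5* were higher with butyrate and *Ush1c*, *Vil1*, *Myo7b*, *Eps8* and *Anks4b* lower, while the interval of *Pls1* included 0. The log2 fold changes ran from -0.62 for *Ush1c* to 0.35 for *Myo1a*, with a median of -0.05. Over the 11652 genes whose mean normalised count reached 50, the median was -0.03. None of the members differed by 2-fold, against 5.48% of those genes in either direction. *Ush1c* alone was lower by at least 1.5-fold, as were 6.43% of all genes, and no member was higher by as much, as were 8.94%. Counting intervals lay above 0 for 4 members and below 0 for 5, compared with 30.6% and 35.2% of all genes, so at these depths an interval without 0 is common and small differences pass it. These shares include genes with fewer counts, and so wider intervals, than the members.

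At 72 h the 10 members were all lower with butyrate than without, except that *Myo7b* and *Cdhr2* were slightly higher, at 0.02 and 0.001, where libraries were scaled to their total count. The log2 fold changes ran from -0.93 for *Myo1a* to -0.03 for *Myo7b*, and the median was -0.21, where the median of all genes was 0.00. Intervals lay below 0 for 8 members and above 0 for none, against 28.6% and 27.7% of all genes. The intervals of *Myo7b* and *Cdhr2* included 0, and over the scalings tried the number below 0 was 7 to 9. None of the members reached 2-fold, a difference that 3.93% of all genes showed. For *Ezr*, *Myo1a* and *Cdhr5*, 3 of the 10, the changes at 48 h and 72 h had opposite signs with both intervals off 0, as for 11.3% of all genes. The same limit of depth holds for this share. *Myo1a* was the single member lower by 1.5-fold, as were 5.13% of all genes, and 5.88% of all genes were higher by as much.

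**Figure D1:**
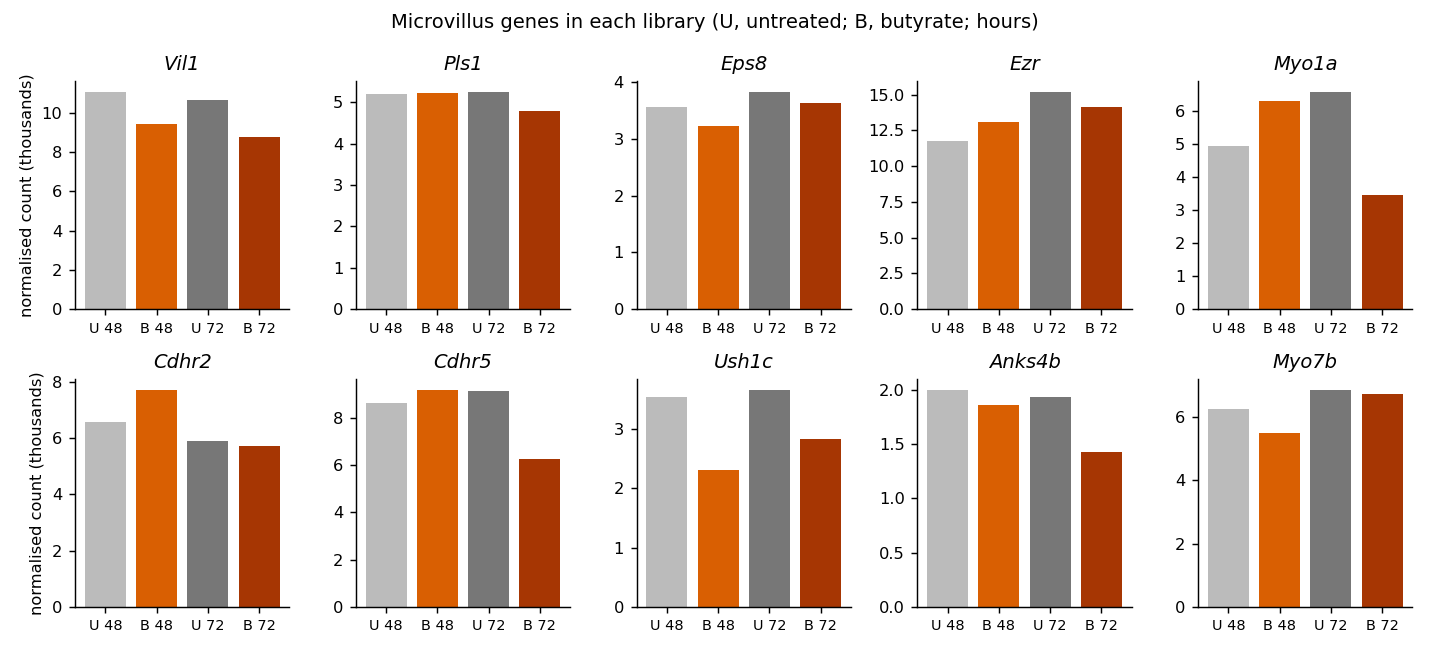
Normalised counts (divided by 1000, each axis from 0) of the 10 members in the 4 libraries, where U is untreated, B is butyrate and the number is the time in hours. Each bar is 1 library without replicate error. *Vil1*, *Pls1*, *Myo1a*, *Cdhr2*, *Cdhr5* and *Anks4b* are lowest in the butyrate library at 72 h, and *Ush1c* is lower in both butyrate libraries than in both untreated ones.

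Among the proteins of the actin core, *Vil1* had 11061 normalised counts in the untreated and 9440 in the butyrate library after 48 h, then 10651 and 8743 after 72 h. Both butyrate libraries were below both untreated ones. Butyrate over untreated gave a log2 fold change of -0.23 (-0.27 to -0.19) after 48 h and of -0.28 (-0.33 to -0.24) after 72 h, and the difference between these changes, -0.06, had an interval that included 0 (-0.11 to 0.00). *Pls1*, whose product holds the filaments of the core in a parallel bundle, was the steadiest member, with 5194, 5235, 5250 and 4778 normalised counts in untreated and butyrate at 48 h and untreated and butyrate at 72 h. Its levels spanned 0.14 on the log2 scale over the 4 libraries. *Eps8*, whose product sits at the growing end of the bundle, had 3554 and 3233 normalised counts at 48 h and 3827 and 3627 at 72 h, so that the butyrate library at 72 h lay above the untreated library at 48 h. Its log2 fold changes were -0.14 (-0.20 to -0.07) and -0.08 (-0.14 to -0.01), the latter -0.03 (-0.09 to 0.04) with scaling to the total count.

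The membrane linkers differed in how they followed time and treatment. *Ezr* stood at 11769 normalised counts untreated against 13080 with butyrate after 48 h, and at 15201 against 14146 after 72 h. Its largest difference was between the untreated libraries, where the later library was higher by 0.37 on the log2 scale (0.33 to 0.40), more than butyrate differed from untreated at 48 h (0.15, 0.12 to 0.19) or at 72 h (-0.10, -0.14 to -0.07). For *Myo1a* the untreated library held 4952 normalised counts and the butyrate library 6304 after 48 h, as against 6587 and 3463 after 72 h. The butyrate library at 72 h was thus the lowest of the 4, and that at 48 h was close to the untreated library at 72 h. Its log2 fold change with butyrate was thus 0.35 (0.30 to 0.40) at the earlier and -0.93 (-0.99 to -0.87) at the later time, a difference of -1.28 (-1.36 to -1.20), the widest among the members. From 48 h to 72 h, *Myo1a* was higher by 0.41 in untreated cultures and lower by 0.86 in butyrate-treated ones. The ratio of *Myo1a* to *Vil1* within a library, which does not depend on scaling, was 0.428 per kb in the untreated library against 0.638 with butyrate after 48 h, and 0.591 against 0.379 after 72 h.

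The tip adhesion genes did not move as a unit. *Cdhr5* had 8629 (untreated) and 9184 (butyrate) normalised counts after 48 h, then 9144 and 6251 after 72 h, so that the butyrate library at 72 h stood below the other 3, which lay close together. This gave log2 fold changes of 0.09 (0.05 to 0.13) and -0.55 (-0.60 to -0.50). *Cdhr2*, whose product is the binding partner of CDHR5, had 6582 and 7735 normalised counts at 48 h and 5916 and 5711 at 72 h. Here the butyrate library at 48 h stood above the other 3, with a log2 fold change of 0.23 (0.19 to 0.28), and at 72 h the change was -0.05 (-0.10 to 0.00). Within each library the per kb ratio of *Cdhr2* to *Cdhr5* was higher with butyrate than without, at 0.559 against 0.506 at 48 h and 0.606 against 0.429 at 72 h.

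*Ush1c* had 3537 (untreated) and 2305 (butyrate) normalised counts after 48 h, then 3663 and 2829 after 72 h. The untreated libraries agreed closely and both butyrate libraries lay below them, with log2 fold changes of -0.62 (-0.69 to -0.54) and -0.37 (-0.45 to -0.30). *Anks4b*, whose product binds harmonin, had 2005 and 1859 normalised counts at 48 h and 1941 and 1432 at 72 h. Log2 fold changes were -0.11 (-0.20 to -0.02) and -0.44 (-0.54 to -0.34), and the butyrate library at 72 h was the lowest. Between these scaffolds the order of the times was therefore opposite, with the larger decrease at 48 h for *Ush1c* and at 72 h for *Anks4b*. *Myo7b* had 6253 and 5504 normalised counts at 48 h and 6871 and 6728 at 72 h. It was lower with butyrate at 48 h, by 0.18 on the log2 scale (-0.24 to -0.13), and at 72 h the change was -0.03 (-0.08 to 0.02).

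**Figure D2:**
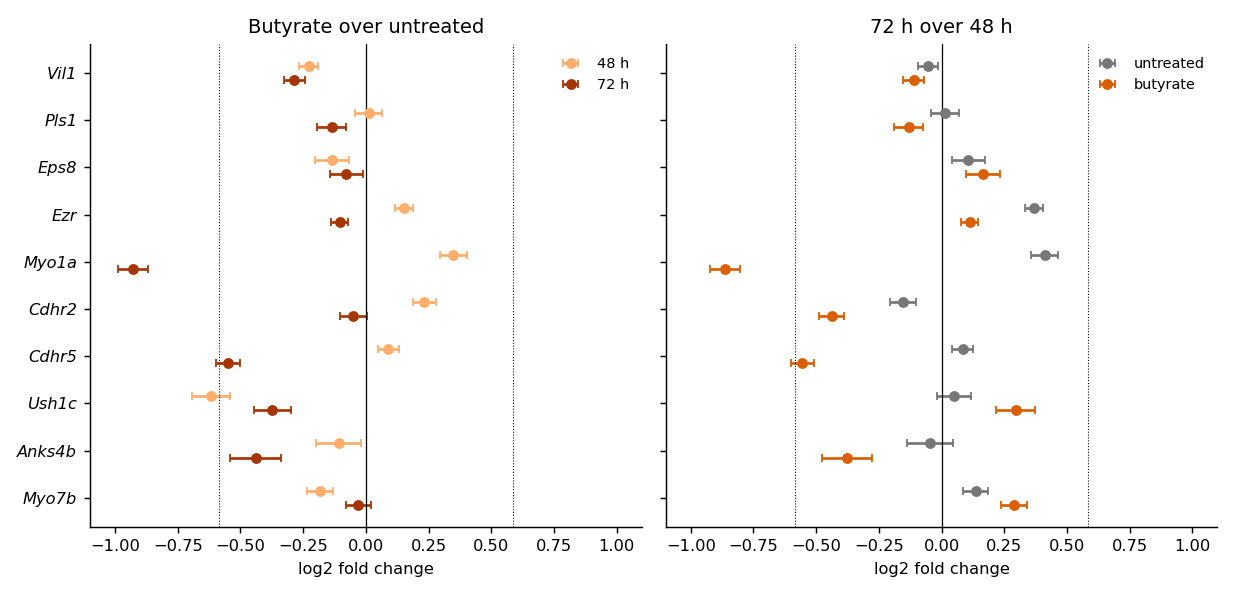
Log2 fold changes of the 10 members for butyrate over untreated at each time (left) and for 72 h over 48 h in each treatment (right). Bars are 95% counting intervals and dotted lines mark 1.5-fold. At 48 h the members fall on both sides of 0, and at 72 h the points lie below 0, with *Myo1a* furthest at -0.93. With scaling to the total count, *Myo7b* and *Cdhr2* would lie at 0.02 and 0.001.

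The change over time was also read within each treatment. In untreated cultures the median of the members was 0.07 from 48 h to 72 h, or -0.011 with scaling to the total count, and none of them differed by 1.5-fold or 2-fold, against 6.4% and 1.6% of all genes. In butyrate-treated cultures the median was -0.12. *Myo1a* alone differed by 1.5-fold over time with butyrate, as did 15.1% of all genes, and no member differed by 2-fold, as did 4.16%. *Cdhr5* (-0.55), *Cdhr2* (-0.44) and *Anks4b* (-0.38) were next lowest at 72 h with butyrate, while *Ush1c* and *Myo7b* were both higher by 0.29. The levels of the members ranged over the 4 libraries by 0.14 for *Pls1* to 0.93 for *Myo1a* on the log2 scale, and for 5 of the 10 the range was under the median of all genes, 0.43. Comparisons at the 2 times use different untreated libraries, but each library enters both a treatment and a time comparison, so these values are not independent.

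Markers of several cell types differed at the same time as the members. Of the 8 colonocyte markers, which label mature absorptive cells, 7 were higher with butyrate at 48 h and 8 were lower at 72 h, with medians of 0.50 and -0.44. Summed, they reached 94586 normalised counts untreated against 102646 with butyrate after 48 h, and 126688 against 74654 after 72 h. *Ceacam1*, an adhesion molecule with 40842 to 77566 counts, made up much of this sum together with *Car1*, and it was lower at both times, with changes of -0.68 and -0.80. *Krt20*, *Slc9a3* and *Car1*, a keratin, a sodium-proton exchanger and a carbonic anhydrase of colonocytes, had log2 fold changes of 0.31, 0.70 and 1.14 at 48 h and of -0.74, -0.39 and -0.88 at 72 h. The 5 stem cell markers had medians of -0.14 and 0.62 and were all higher with butyrate at 72 h, as were the 4 proliferation markers, with medians of 0.06 and 0.41. Of the 6 goblet cell markers, 4 were lower at 48 h and 6 at 72 h, with medians of -0.40 and -0.99. Of the 5 enteroendocrine markers, 1 was lower at 48 h and 5 at 72 h, with medians of 0.04 and -0.81. The tuft cell, which bears a tuft of long microvilli, had 6 markers with a summed level of 480 and 410 normalised counts at 48 h and 538 and 232 at 72 h, and *Gfi1b* among them had at most 6 counts. Among these, *Dclk1* changed by -2.12 (-2.68 to -1.64) at 72 h, *Trpm5* by -1.68 (-2.39 to -1.09) and *Pou2f3* by -0.97 (-1.68 to -0.33). *Ptgs1* changed by -0.15, with an interval that included 0 (-0.64 to 0.34). In bulk libraries, fewer cells of a type and less RNA in each cell cannot be told apart. The part of these cell types in the values of the members was not tested.

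Promoter sequences are shown for the 4 members that were lowest with butyrate at 72 h, *Myo1a*, *Cdhr5*, *Anks4b* and *Ush1c*. RefSeq promoters of the GRCm38 build were used for 8 of the 10 members. Those of *Eps8* and *Myo7b* were not examined, so motif counts among the members cover these 8 only. Each sequence below is the 250 bases before the RefSeq start, 5′ to 3′ on the strand of the gene. They lie at chr10:127705006-127705255 (+) for *Myo1a*, chr7:141276787-141277036 (-) for *Cdhr5*, chr7:120173608-120173857 (+) for *Anks4b* and chr7:46238491-46238740 (-) for *Ush1c*. Capitals mark matches, on either strand, to CAAAGTNCA (HNF4), TTTATG (CDX) or GGGCGG (the GC box of Sp1-family factors). No match of these motifs overlapped another. The GENCODE starts given above differ, so that 86 of these bases in *Myo1a* and 13 in *Ush1c* lie inside the gene as annotated there.
Myo1a: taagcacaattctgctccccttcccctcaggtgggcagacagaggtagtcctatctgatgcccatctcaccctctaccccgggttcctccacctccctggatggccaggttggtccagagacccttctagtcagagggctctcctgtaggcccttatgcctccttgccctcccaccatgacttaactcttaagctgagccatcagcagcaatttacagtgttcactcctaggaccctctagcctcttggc
Cdhr5: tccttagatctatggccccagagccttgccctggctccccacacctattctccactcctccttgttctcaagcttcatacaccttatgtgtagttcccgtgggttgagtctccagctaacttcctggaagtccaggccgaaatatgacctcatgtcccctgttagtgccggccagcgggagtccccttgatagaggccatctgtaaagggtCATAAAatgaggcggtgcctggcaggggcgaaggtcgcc
Anks4b: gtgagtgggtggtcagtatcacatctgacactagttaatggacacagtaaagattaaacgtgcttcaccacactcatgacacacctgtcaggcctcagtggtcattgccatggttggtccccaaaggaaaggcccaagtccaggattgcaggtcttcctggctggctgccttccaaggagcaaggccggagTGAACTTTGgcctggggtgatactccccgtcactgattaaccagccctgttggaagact
Ush1c: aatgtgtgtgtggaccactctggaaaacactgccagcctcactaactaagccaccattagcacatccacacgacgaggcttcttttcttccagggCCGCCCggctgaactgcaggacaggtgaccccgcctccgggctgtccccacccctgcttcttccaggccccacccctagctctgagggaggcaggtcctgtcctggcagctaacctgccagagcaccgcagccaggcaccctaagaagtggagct

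HNF4 and CDX proteins are transcription factors of the intestinal epithelium known to act on brush border genes. The promoter of *Anks4b* held the HNF4 letters once, from 59 to 51 bases before the start, and it was the only one of the 8 to do so, while 1.19% of 32851 promoters in the table held them. The CDX letters were found in *Cdhr5* alone, from 39 to 34 bases before the start, and in 10.8% of all promoters. GC boxes were found in 3 of the 8, *Ush1c*, *Vil1* and *Ezr*, and in 32.7% of all promoters. In *Ush1c* the GC box lay from 155 to 150 bases before the start. The promoter of *Myo1a*, the member with the largest change, held none of the 3 motifs in this window. The bases G and C made up 56.0% of it, 55.6% of that of *Cdhr5*, 52.8% of that of *Anks4b* and 61.2% of that of *Ush1c*.

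Of the transcription factors themselves, *Hnf4a* had 13226 counts untreated against 15018 with butyrate after 48 h, and 15177 against 10686 after 72 h, log2 fold changes of 0.01 (-0.02 to 0.04) and -0.38 (-0.41 to -0.34). *Cdx2* changed by 0.13 and -0.16, *Cdx1* by -0.02 and -0.35, and *Hnf4g*, which had at most 261 counts, by -0.58 and -0.43. All 4 were lower with butyrate at 72 h, as were the members, and this was not tested further.

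Other genes were taken from 7 lists by function, 53 genes in all, which hold proteins of the microvillus and terminal web, genes of apical trafficking, 5 hair cell counterparts and the 4 transcription factors. Of these, 48 reached 10 counts in 2 or more libraries. At 48 h, 7 of the 48 were higher by 1.5-fold or more and 0 lower, against 8.94% and 6.43% of all genes. At 72 h, 6 were higher by as much, and 3 were lower, the bundlers *Lcp1* (-0.76) and *Avil* (-0.95), which is also 1 of the 6 tuft cell markers above, and the ezrin kinase *Stk10* (-0.65), against 5.88% and 5.13% of all genes. Their medians were 0.00 at 48 h and -0.14 at 72 h, beside -0.05 and -0.21 for the members. The actin genes changed little, *Actb* by 0.07 and 0.00 and *Actg1* by -0.02 and -0.05, and with scaling to the total count neither was lower at 72 h. *Slc9a3r1*, the scaffold that binds active ezrin, changed by 0.29 (0.23 to 0.35) and -0.22 (-0.29 to -0.16). The ezrin kinase *Stk10* changed by 0.51 and -0.65, while *Slk*, the more abundant kinase of ezrin with 3618 to 4827 counts, changed by -0.44 and 0.03. Of the 6 counted partners of ezrin and its relatives, 3 were higher and 3 lower at each time. *Calml4*, whose product is a light chain of myosin-7b, changed by -0.43 (-0.51 to -0.35) and -0.52 (-0.62 to -0.43), whereas its motor *Myo7b* changed by -0.18 and -0.03. *Myo1d*, the class I myosin that shares the brush border with myosin-1a, changed by 0.28 and -0.19, less than *Myo1a* at 72 h. Per kb, the ratio of *Myo1a* to *Myo1d* was 0.957 and 1.00 at 48 h and 1.04 untreated and 0.627 with butyrate at 72 h.

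Of the 8 genes of the terminal web, the actin and myosin mesh under the microvilli, 1 was past 1.5-fold at each time, with medians of -0.08 and -0.09. Its abundant members *Myh9*, *Tpm3* and *Actn4* changed by -0.06, -0.29 and 0.13 at 48 h and by 0.01, -0.20 and -0.10 at 72 h. The 7 further myosins and light chains had medians of 0.06 and -0.14 and the 6 genes of apical trafficking of -0.06 and -0.22, with 0 past 1.5-fold in either list. Among the latter, *Stx3*, a syntaxin of the apical membrane, changed by -0.42 and -0.37.

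**Figure D3:**
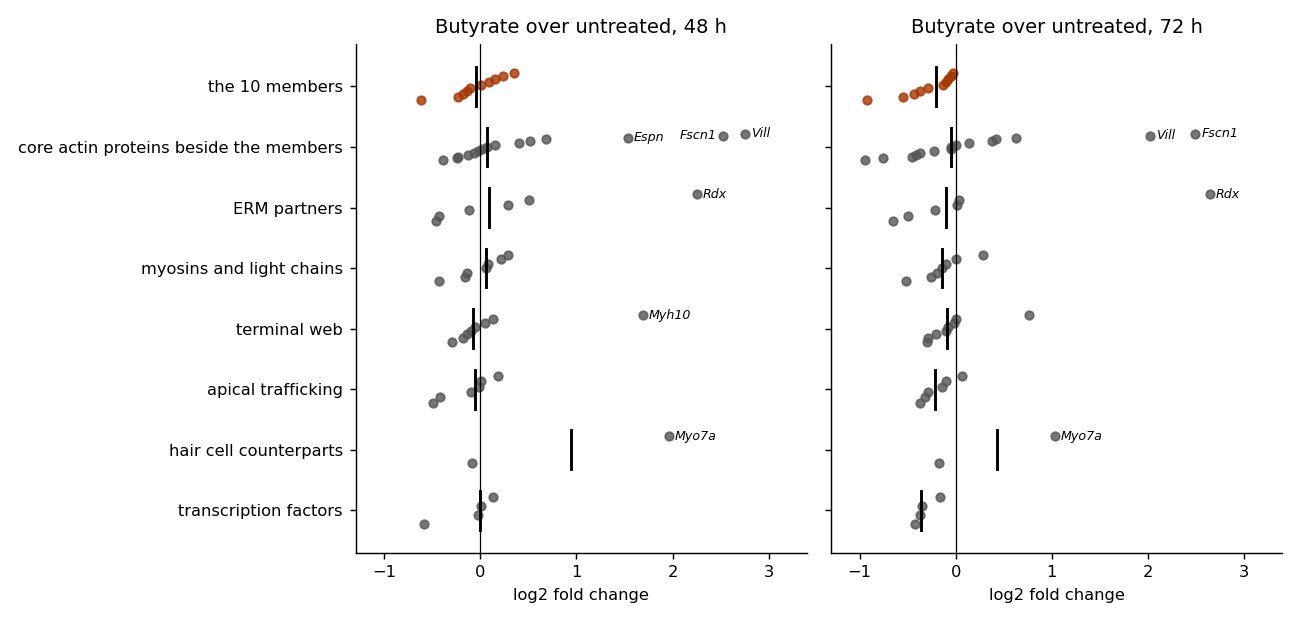
Log2 fold changes with butyrate at 48 h and 72 h for the 10 members (red) and for the 7 lists of other genes (grey), each point 1 gene that reached 10 counts in 2 or more libraries. Vertical black bars are list medians and names mark genes higher by at least 2-fold. The members lie between -0.93 and 0.35, while *Vill*, *Fscn1*, *Rdx* and *Myo7a* lie above 1 at both times.

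The genes of these lists that were higher with butyrate by 2-fold at both times, *Vill*, *Rdx*, *Fscn1* and *Myo7a*, had untreated levels of 3.5 to 29.4 per kb, below every member. *Vill*, a villin-like gene, had 49 counts untreated against 380 with butyrate after 48 h, and 24 against 92 after 72 h, log2 fold changes of 2.76 (2.35 to 3.24) and 2.02 (1.41 to 2.78). *Rdx* encodes radixin, a relative of ezrin, with 16 against 90 counts and 20 against 119, log2 fold changes of 2.25 (1.54 to 3.19) and 2.64 (2.01 to 3.46). *Fscn1*, the actin bundler of filopodia, had 23 against 154 counts and 18 against 97, log2 fold changes of 2.52 and 2.49. *Myo7a*, the hair cell counterpart of *Myo7b*, had 224 and 986 counts, and 255 and 479, log2 fold changes of 1.96 (1.75 to 2.18) and 1.04 (0.82 to 1.26). *Espn* encodes the bundler espin and had 357 and 1166 counts, and 399 and 489, log2 fold changes of 1.53 (1.36 to 1.71) and 0.42 (0.23 to 0.62). *Myh10*, a non-muscle myosin of the terminal web, changed by 1.69 and 0.76. *Twf2*, a twinfilin, was past 1.5-fold at 48 h alone (0.69 and 0.14), and *Eps8l1* at 72 h alone (0.15 and 0.63). The difference between times was -0.55 (-0.92 to -0.18) for *Twf2* and 0.47 (-0.14 to 1.09) for *Eps8l1*. Neither difference was tested against replicate error.

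Per kb of exon, *Ezr*, *Vil1* and *Myo7b* stood above *Rdx*, *Vill* and *Myo7a* in every library. *Ezr* exceeded *Rdx* 1014-fold untreated against 226-fold with butyrate after 48 h, and 1085-fold against 155-fold after 72 h. *Vil1* exceeded *Vill* 274-fold and 34.0-fold at 48 h, and 558-fold and 109-fold at 72 h. *Myo7b* exceeded *Myo7a* 35.3-fold and 7.96-fold at 48 h, and 35.3-fold and 16.8-fold at 72 h. These relatives were picked for being higher at both times, so the narrower gap with butyrate follows from the choice. In other pairs the ratio was larger with butyrate, for *Pls1* over *Lcp1* at 20.2 against 15.3 after 48 h and 20.8 against 13.5 after 72 h, and for *Pls1* over *Pls3* at 3.34 against 2.79 and 2.56 against 2.41. *Ezr* over *Msn* was 158 with butyrate against 103 untreated after 48 h, and 91.3 against 98.7 after 72 h. Among other relatives, moesin (*Msn*) changed by -0.46 (-0.76 to -0.17) and 0.01 (-0.23 to 0.25), the plastins *Pls3* and *Lcp1* by -0.25 and -0.39 at 48 h and by -0.22 and -0.76 at 72 h, and the EPS8 relatives *Eps8l2* and *Eps8l3* by 0.01 and -0.13 at 48 h and by -0.05 and -0.41 at 72 h. *Eps8l1*, given above, was higher at 72 h. *Eps8l3* had a higher level per kb than *Eps8* in each library, with either length. Of the other hair cell genes, *Cdh23*, *Pcdh15* and *Ush1g* had at most 4 counts, and *Whrn* changed by -0.08 and -0.18.

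**Figure D4:**
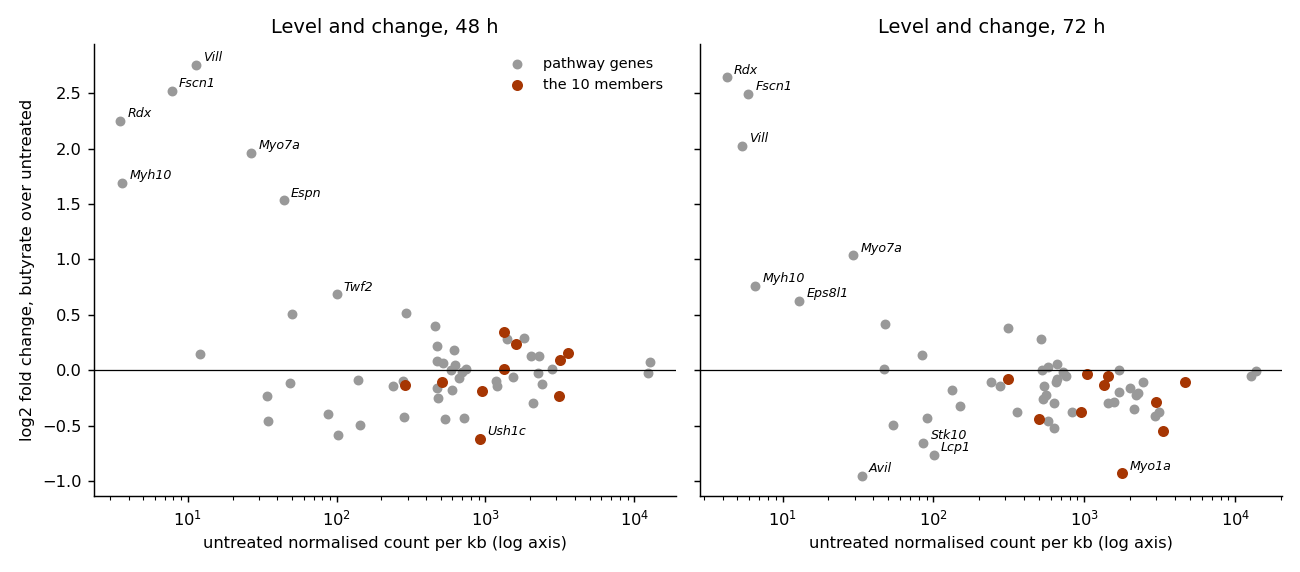
Untreated level (normalised counts per kb, log axis) against the log2 fold change with butyrate at 48 h and 72 h, for the 10 members (red) and the genes of the 7 lists (grey). The untreated level enters both axes, and names mark genes past 1.5-fold. The 10 members lie at 288 counts per kb or above, while the 7 genes higher by 1.5-fold at 48 h lie between 3.5 and 100.1.

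The median profile of the members, as log2 levels centred over the 4 libraries, stood at 0.03 (untreated) and -0.005 (butyrate) after 48 h, then at 0.12 and -0.14 after 72 h. The closest member was *Pls1*, at a Euclidean distance of 0.10, and the farthest *Myo1a*, at 0.58. Among 10779 other genes whose mean normalised count reached 100, the 5 nearest were *Fam241a*, *Ttc19*, *Lrp10*, *Nampt* and *Slc30a7*, at distances of 0.0105, 0.0132, 0.0137, 0.0149 and 0.0212. *Nampt*, for example, had 3210 (untreated) and 3562 (butyrate) counts after 48 h, then 3550 and 2693 after 72 h. With 4 libraries and a profile this flat, a small distance is easily reached.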

How the data were processed

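Poly-A RNA of 4 libraries was measured. The authors deposited estimated counts per gene, not normalised and rounded to whole numbers. They had used kallisto for pseudoalignment and tximport for gene-level sums. The submitters' processing notes name kallisto 0.44.0 and GRCm38.p6. All genes were scaled with DESeq2 1.42.0 size factors in R 4.3.3, computed on the 13979 genes that exceeded 10 counts in 2 or more libraries. Log2 fold changes used a pseudocount of 1. Intervals were exact Clopper-Pearson intervals on the pair of counts, and normal approximations on 4 counts for differences between times. No molecular identifiers were used, so reads may repeat a molecule and counting error is a lower limit. Fold changes and intervals were tested on simulated counts that held counting error only. The intervals assume the same error, so this checked the computation and not the variation between cultures.

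Pseudoalignment shares reads between similar transcripts, and 26 gene names had been turned into dates. Exon lengths and positions came from GENCODE M21, and promoters from RefSeq. TMM factors came from edgeR 4.0.16, other values from Python 3.11.15 with scipy 1.17.1, pandas 2.3.3 and numpy 2.4.6, and plots from matplotlib 3.10.9.

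The members and lists were chosen with earlier results of these data known. All members were named, together with members of the function lists past 1.5-fold at either time and those of highest level, and the 5 genes nearest in pattern. Paralogues of members were named from the lists after their values were seen. Alternatives were TMM, total count with and without mitochondrial genes, size factors without a filter, a pseudocount of 5, thinning, a fold of 1.5, another background filter and another length. The imaging and cell line experiments were not analysed here.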

Additional observations from a re-analysis of the deposited data

Results flagged for a closer look

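For 3 members the difference between butyrate and untreated had 1 sign after 48 h and the other after 72 h, each with a counting interval that left out 0, as for 11.3% of the 11652 genes. That share includes genes with fewer counts, and so wider intervals, than the members. *Myo1a* had log2 fold changes of 0.35 and -0.93, *Cdhr5* of 0.090 and -0.55, and *Ezr* of 0.15 and -0.10. The same held for 8 of the 53 genes of the function lists. *Stk10* changed by 0.51 and -0.65, *Gsn* by 0.40 and -0.46, *Slc9a3r1* by 0.29 and -0.22, and *Myo1d* by 0.28 and -0.19. *Rab11a* changed by 0.18 and -0.11, *Cdx2* by 0.13 and -0.16, *Actn4* by 0.13 and -0.10, and *Myo6* by 0.062 and -0.14. The difference between the times was not tested against replicate error, since each condition is a single library. How long butyrate was present and which culture was sampled cannot be told apart.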

How the results depend on the processing

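With scaling to the total count, the median of the members at 72 h moved from -0.21 to -0.16, and that from 48 h to 72 h in untreated cultures changed sign, from 0.07 to -0.011. The same scaling moved the median of all genes in these comparisons from 0.00 to 0.05 and from -0.005 to -0.083. A fold of 1.5 in place of 2 gave 1 member at 48 h and 1 at 72 h instead of 0. The other settings kept these medians between the median of the members' lower interval limits and that of their upper limits. These limits are not an interval for the median and leave out the spread between members. Of 300 recomputed changes of single members, 287 stayed within their intervals and 13 moved outside, all with total count scaling, among them *Ezr* at 72 h, from -0.10 to -0.05. The interval of *Eps8* at 72 h took in 0 with total counts, with or without mitochondrial genes, and that of *Cdhr2* left out 0 with size factors from all genes. With the filter of the methods, 10.0% of genes differed 2-fold at 48 h and 8.31% at 72 h. No paired analysis was run, as the labels number no replicates and each condition is a single library. An additive fit of treatment and time to the 4 libraries, which leaves 1 residual degree of freedom, was not run. Depth limits the folds of *Vill*, *Rdx*, *Fscn1* and *Myh10*, whose untreated libraries held 16 to 70 counts.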
